A study of Mus musculus with 10 samples.

Results

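The reactive gliosis genes examined here were *Gfap*, *Vim*, *Nes*, *Lcn2*, *Serpina3n*, *Edn2*, *Fgf2*, *Cp*, *Timp1* and *Cd44*. They were chosen by name, as 10 of the 53974 genes in the RNA-seq table, and their chromatin was read from regions of the ATAC-seq comparison within 1000 bp of either end of each gene. This rule found 2 of the 16600 regions, one at *Vim* and one at *Cd44*. The other 8 genes had no region there. RNA-seq reads transcripts, and ATAC-seq reads DNA that a transposase can reach, which marks open chromatin.

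All mice were 8 to 10 weeks old on the C57BL/6 strain, carried floxed alleles of *Arid1a*, a subunit of the SWI/SNF chromatin remodelling complex, and had their optic nerve crushed (ONC). At 2 weeks before ONC the eye received AAV2-GFP, and the genotype was given as Arid1a fl/fl (labelled WT), or AAV2-Cre, and the genotype was given as Arid1a del/del (labelled cKO). Retinal cells were sorted with an antibody to Thy1.2 at 3 days after ONC, giving 3 WT and 3 cKO RNA-seq libraries and 2 WT and 2 cKO ATAC-seq libraries, with no uninjured library. The comparison asks how RNA and chromatin of injured cells differ when *Arid1a* is deleted. Both viruses carried the CMV promoter, which is not restricted to retinal ganglion cells (RGCs), and the AAV2-GFP stock had the higher titer. The virus used and the genotype therefore cannot be told apart. Each sample pooled 4 to 5 retinas. The ATAC-seq libraries are described as biological replicates, but no source used here says so of the RNA-seq libraries, whose p-values then measure the spread between these libraries, which may be technical.

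Reactive gliosis is the response of glial cells to injury of nervous tissue. In the retina it is carried by Müller glia, which span the whole retina, and by astrocytes of the nerve fibre layer. Their intermediate filament proteins GFAP, vimentin and nestin form a stress-bearing cytoskeleton, and GFAP is scarce in resting Müller glia of the mouse and a common marker of their reaction. Reactive glia and their neighbours also use secreted signals such as endothelin 2 (*Edn2*) and basic fibroblast growth factor (*Fgf2*). Lipocalin 2 (*Lcn2*), the serine protease inhibitor *Serpina3n*, the copper-containing ferroxidase ceruloplasmin (*Cp*), the metalloproteinase inhibitor *Timp1* and the hyaluronan receptor *Cd44* are further members of this response.

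RNA of the targeted gene did not follow the labels. *Arid1a* had 18.8, 11.7 and 14.1 TPM (the level of a transcript per length, scaled to a fixed sum per library) in the libraries labelled WT and 18.8, 27.9 and 25.0 TPM in those labelled cKO, a log2 difference of 0.66 with an adjusted p of 0.274 by limma. TPM is summed over the whole gene, so it may miss the loss of a floxed part, and reads over that part were not analysed here. Directions below are therefore given by label. The labels name RGCs. *Pou4f2*, a defining RGC factor, was listed at 0 in 5 of 6 libraries and *Rbpms* had 1.82 to 6.43 TPM, while *Thy1*, the gene of the sorted antigen, had 51.9 to 88.5 TPM in WT and 94.4 to 129 TPM in cKO. The 15 RGC markers summed to 208 to 288 TPM in WT and 301 to 327 TPM in cKO. *Thy1*, *Isl1* and *Ebf1*, the last 2 named after their values were seen, made up most of that sum. *Isl1* is also among the bipolar cell markers used here. Of the 15, 12 were tested, with 8 log2 differences above 0, 3 of them without overlap. The 4 below 0, *Rbpms*, *Pou4f1*, *Sncg* and *Gap43*, overlapped between the labels. The higher sum in cKO therefore does not measure the share of RGCs. The 15 Müller glia markers summed to 17151 to 31666 TPM in WT and 12954 to 30086 TPM in cKO. The 9 retinal astrocyte markers summed to 345 to 540 and 448 to 526 TPM, with *Pax2*, the defining astrocyte factor, listed at 0 in 4 of 6 libraries. *Aldoc*, named after its values were seen, had 280 to 402 TPM and made up most of that sum. Only 4 of the 9 were tested, with 2 log2 differences above 0 and 2 below, from 0.78 for *Slc1a2* to −0.60 for *S100b*. The sum therefore does not measure the share of astrocytes. Summed rod markers were 13057 to 17999 TPM in WT and 26578 to 49732 TPM in cKO, and summed markers of microglia and myeloid cells were 2429 to 3922 and 1088 to 1507 TPM. In bulk samples fewer cells of a type and less RNA per cell cannot be told apart.

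The plainest pattern among the members was in the glial intermediate filaments. *Gfap*, *Vim* and *Nes* were each lower in every cKO library than in any WT library, with mean ratios of 3.17, 1.77 and 2.65. The secreted ligand *Fgf2* was higher in every cKO library than in any WT library. *Edn2*, the other ligand, had a higher mean in cKO but overlapped between the labels, as did *Lcn2*, *Serpina3n*, *Cp*, *Timp1* and *Cd44*. None of these differences passed the adjusted threshold. Of the 10 members, 9 reached 1 TPM in at least 3 of the 6 libraries and were tested. By limma, 0 of the 9 had an adjusted p under 0.05 in either direction, against 0.00570% of all 17555 genes tested that were called higher and 0% called lower. At an unadjusted p under 0.05, 3 were lower (*Gfap*, *Vim* and *Nes*) and 1 was higher (*Edn2*), where 6.45% of all genes were lower and 11.9% were higher. With the replicate number as a block, 4 were lower (*Cd44* in addition) and 0 were higher. Groups without overlap were found for 3 members in the lower direction and for 1, *Fgf2*, in the higher, beside 7.18% and 18.7% of all genes. By either count, the 1 of 9 members that was higher did not exceed the share over all genes. The median log2 difference of the 9 members was −0.29, and that of all genes was 0.16. The members' median was −0.67, −0.70 and −0.01 without WT replicate 1, 2 or 3 and −0.77 without cKO replicate 3, and −0.78 over those with a mean of at least 5 TPM. Libraries scaled instead by their median ratio to the geometric mean moved the median of all genes by 0.15 to 0.01 and that of the members to −0.45. With it, the share of unadjusted calls that were higher went from 64.9% to 44.2% of all calls.

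**Figure D1:**
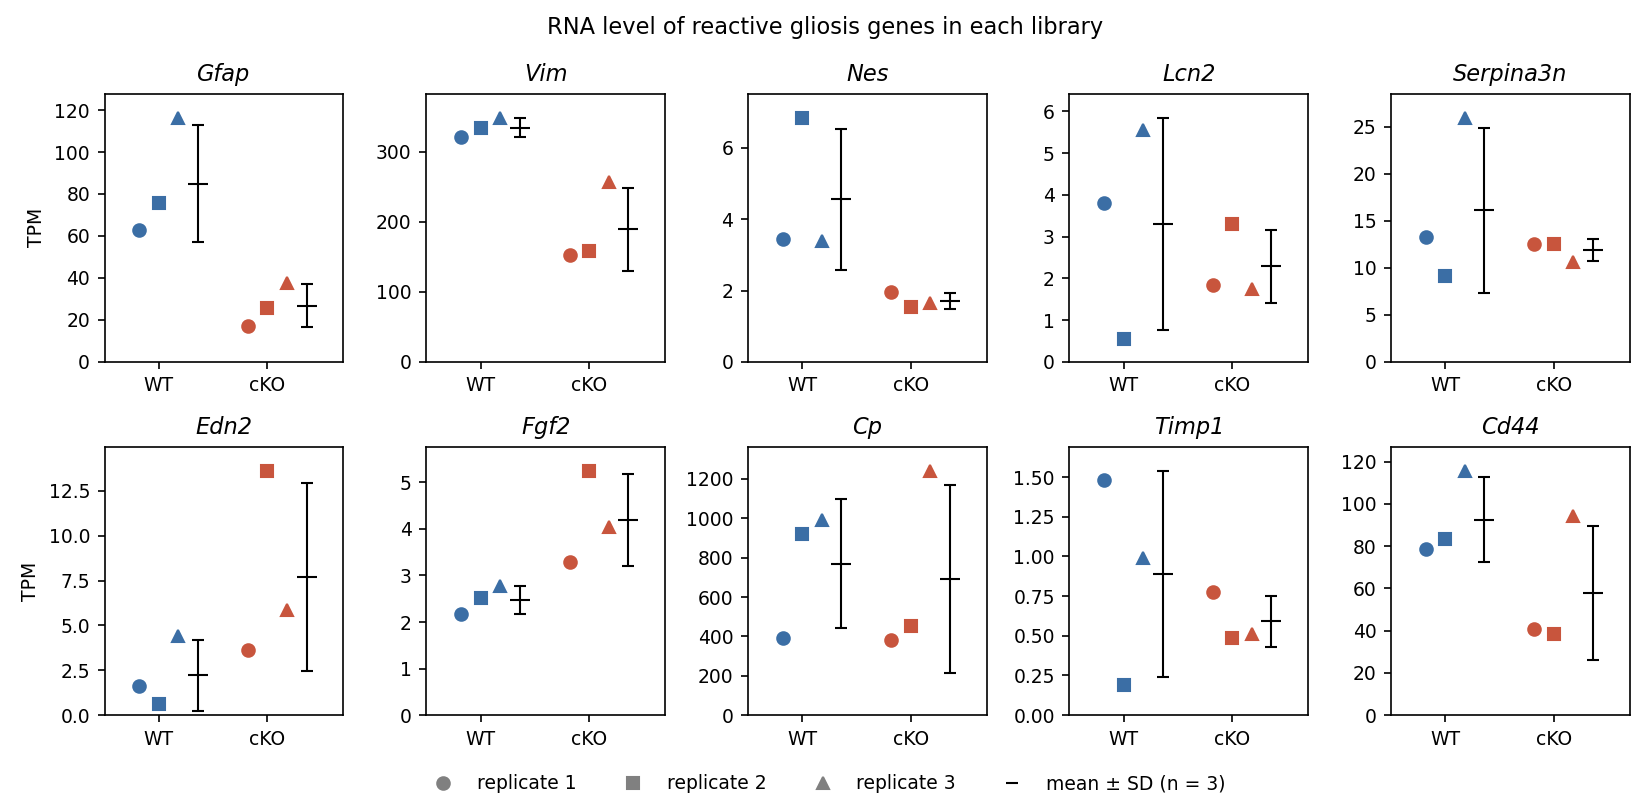
RNA level (TPM, linear axis from 0) of each of the 10 genes in 3 WT (blue) and 3 cKO (red) libraries, with marker shape for the replicate number and a bar for mean ± SD. *Gfap*, *Vim* and *Nes* show all cKO points below all WT points, *Fgf2* shows all cKO points above, and cKO replicate 3 lies above the other cKO points for *Vim*, *Cd44* and *Cp*.

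Levels per transcript length set the members apart before any comparison. In WT, *Cp* was the most abundant at a mean of 769 TPM, followed by *Vim* at 335, *Cd44* at 92.6, *Gfap* at 85.0 and *Serpina3n* at 16.1 TPM. Among these neighbours only *Cd44* and *Gfap* had overlapping ranges. *Nes*, *Lcn2*, *Fgf2*, *Edn2* and *Timp1* followed at means of 4.56 to 0.888 TPM, each overlapping the next. In cKO the first 5 places were the same, but *Cd44*, at 57.8 TPM, no longer overlapped *Gfap*, at 26.8 TPM. *Edn2* and *Fgf2* stood above *Lcn2* and *Nes* in cKO and below them in WT, in stretches where neighbours overlapped.

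*Gfap*, the filament gene that marks reacting Müller glia and astrocytes, had 63.0, 75.7 and 116 TPM in WT replicates 1 to 3 and 17.3, 25.7 and 37.5 TPM in cKO replicates 1 to 3. The highest cKO library lay below the lowest WT library. The mean was 85.0 ± 27.8 TPM in WT and 26.8 ± 10.1 TPM in cKO (SD, n = 3 each). Its log2 difference was −1.64 ± 0.36 (SE), with an unadjusted p of 0.00233 and an adjusted p of 0.124 by limma. The exact two-sided permutation p was 0.1, the smallest that 3 against 3 libraries allow. Leaving out each library in turn gave log2 differences of −1.91 to −1.38.

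*Vim*, which encodes vimentin and is made by Müller glia also at rest, had 321, 334 and 348 TPM in WT and 153, 158 and 257 TPM in cKO. The WT libraries were close to each other, whereas cKO replicate 3 lay well above the other cKO libraries and still below all WT. The mean was 335 ± 13.6 TPM in WT and 189 ± 59.0 TPM in cKO (SD, n = 3 each). This gave a log2 difference of −0.86 ± 0.25 (SE), with an unadjusted p of 0.0114 and an adjusted p of 0.163 by limma.

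*Nes*, which encodes nestin, a filament of progenitors and reacting glia, was much scarcer, at 3.43, 6.84 and 3.39 TPM in WT and 1.97, 1.54 and 1.65 TPM in cKO. The groups did not overlap, and WT replicate 2 stood above the other WT libraries. On the log2 scale the difference was −0.98 ± 0.33 (SE), with an unadjusted p of 0.0203 and an adjusted p of 0.192 by limma. At levels this low the pseudocount of 1 matters: with 0.1 the difference was −1.28.

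Of 9 intermediate filament genes outside the members 6 were tested, and these 6 had log2 differences above 0, with a median of 0.56, although that of *Nefm* was 0.02. The 3 too low to be tested, *Des*, *Prph* and *Krt8*, had differences of mean log2 level below 0, and *Des* did not overlap between the labels. The keratin *Krt18* had the smallest p, at a mean of 27.3 ± 3.39 TPM in WT and 46.2 ± 15.04 TPM in cKO (SD, n = 3 each), with groups that did not overlap and an adjusted p of 0.258 by limma. The α-internexin gene *Ina*, a neuronal filament, had the largest difference at 0.89. None of the 6 passed the adjusted threshold, and 1 of them passed an unadjusted p under 0.05.

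**Figure D2:**
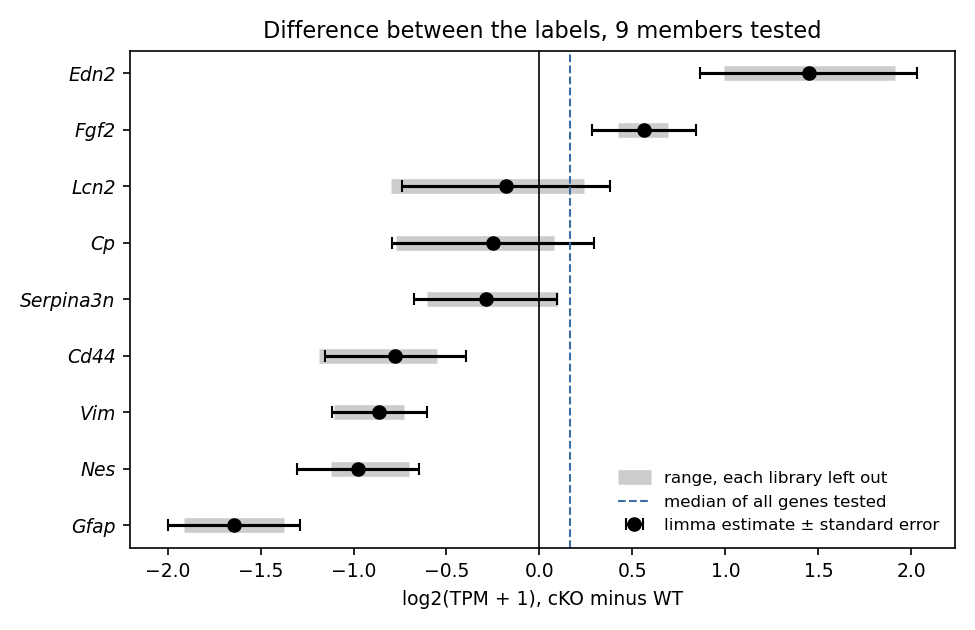
Log2 difference in TPM + 1, cKO minus WT, of the 9 members tested (points, with bars for the limma standard error), the range when each of the 6 libraries was left out (grey), and the median of all 17555 genes (dashed, at 0.16). *Gfap*, at −1.64, lies farthest below 0 and *Edn2*, at 1.45, farthest above, and the grey ranges of *Lcn2*, *Cp* and *Serpina3n* cross 0.

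The Müller glia markers moved with the filaments to some extent. Of the 15 markers, all tested, 14 had log2 differences below 0, with a median of −0.44. Of them 2, *Apoe* and *Prdx6*, were lower at an unadjusted p under 0.05, beside 6.45% of all genes. All 15 overlapped between the labels. The mean log2 level of the 15 was 8.77, 9.72 and 9.43 in WT and 8.44, 8.62 and 9.41 in cKO, so that cKO replicate 3 lay within the WT range. To see each member beside these markers, that mean was subtracted from the member's log2(TPM + 1) in the same library, a measure chosen after the values were seen. *Gfap* then had −2.77, −3.46 and −2.56 in WT and −4.25, −3.88 and −4.15 in cKO. The groups still did not overlap, and the difference of means was −1.16. In cKO replicate 3, the only cKO library with a mean marker level inside the WT range, *Gfap* was 37.5 TPM. That lay below all WT libraries, but it is the value of a single library.

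Relative to the same markers, *Vim* and *Nes* overlapped between the labels, with differences of means of −0.37 and −0.49. *Cd44*, *Cp*, *Lcn2*, *Serpina3n* and *Timp1* overlapped as well, at −0.29, 0.24, 0.31, 0.20 and 0.30. *Fgf2* and *Edn2* were higher in cKO without overlap, by 1.05 and 1.93. The subtracted marker mean was itself lower in cKO, by 0.49, which raises the difference of every member on this measure. The share of all genes without overlap was not computed for it, and *Edn2* overlapped between the labels in TPM. Ratios of one gene to another within a library, which no scaling of libraries can change, gave a like picture for *Gfap*. The ratio of *Gfap* to *Vim* was 0.196 to 0.334 in WT and 0.113 to 0.163 in cKO. Against *Glul*, the glutamine synthetase of Müller glia, *Gfap* had ratios of 0.0474 to 0.0932 in WT and 0.0239 to 0.0386 in cKO. The ratio of *Vim* to *Glul* was 0.209 to 0.476 and 0.164 to 0.252, which overlapped. Whether the share of Müller glia, astrocytes or other cells has a part in the lower filament levels was not tested. Median log2 differences were also below 0 for markers of T cells (−2.08), microglia and myeloid cells (−0.74) and endothelial cells and pericytes (−0.81). Those of rod, cone, bipolar and amacrine cell markers were above 0.

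**Figure D3:**
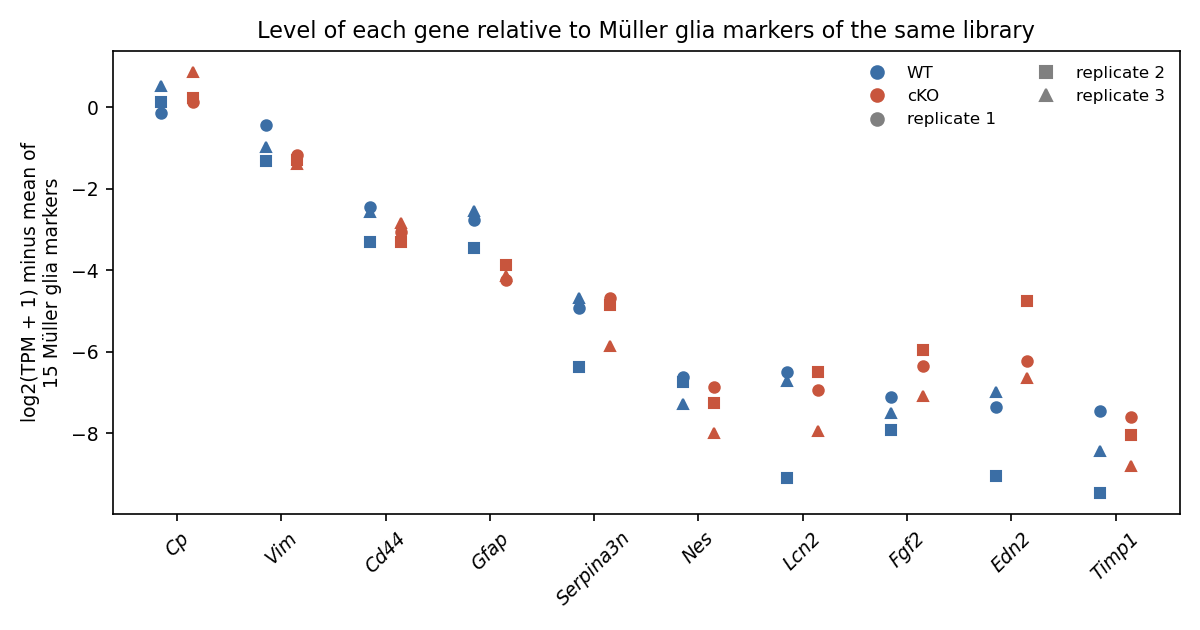
Log2(TPM + 1) of each member minus the mean of 15 Müller glia markers in the same library, for WT (blue) and cKO (red), with marker shape for the replicate number. The *Gfap* points of cKO lie at −4.25 to −3.88 and those of WT at −3.46 to −2.56, while *Vim*, *Cd44* and *Cp* overlap.

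*Edn2*, a secreted peptide that injured photoreceptors are known to make and that acts on glial endothelin receptors, was low and variable. It had 1.65, 0.603 and 4.40 TPM in WT and 3.66, 13.6 and 5.85 TPM in cKO. The groups overlapped, since WT replicate 3 lay above cKO replicate 1, and cKO replicate 2 was the highest of all. The mean was 2.22 ± 1.96 TPM in WT and 7.70 ± 5.22 TPM in cKO (SD, n = 3 each), a ratio of 3.47. The log2 difference was 1.45 ± 0.58 (SE), with an unadjusted p of 0.0416 and an adjusted p of 0.253 by limma. Its unadjusted p passed 0.05 in some fits and not in others: with the replicate block it was 0.0533, and without cKO replicate 2 it was 0.131.

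*Fgf2*, a growth factor held in the matrix and made by Müller glia and photoreceptors, had 2.17, 2.51 and 2.77 TPM in WT and 3.28, 5.24 and 4.04 TPM in cKO. All cKO libraries lay above all WT libraries, although the whole range was narrow. The same held for 18.7% of all genes tested. The mean was 2.48 ± 0.298 TPM in WT and 4.19 ± 0.987 TPM in cKO (SD, n = 3 each). The log2 difference was 0.56 ± 0.28 (SE), with an unadjusted p of 0.0848 and an adjusted p of 0.331 by limma. Rod markers moved in the same direction as both ligands: 10 of 10 were higher without overlap, with a median log2 difference of 1.38, and their part in the levels of *Edn2* and *Fgf2* was not tested. The genes *Fgf2os* and *Nudt6* overlap *Fgf2*, and *Gm36134* spans *Edn2*. The sources used here do not state a strand setting, so reads of such partners may not have been told apart.

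Among 15 ligands and receptors that act with the members, 9 were tested, and 4 had differences above 0 and 5 below, with a median of −0.02. No gene passed the adjusted threshold, and 1 passed an unadjusted p under 0.05. This was the fibroblast growth factor receptor *Fgfr4*, at 3.62, 2.01 and 0.743 TPM in WT and 8.45, 11.3 and 3.60 TPM in cKO, where WT replicate 1 lay just above cKO replicate 3. *Fgfr1* had the lowest difference at −1.06, set largely by WT replicate 2 with 92.4 TPM against 15.9 to 20.8 TPM in the other WT libraries. The receptors of *Edn2* are named here after their values were seen. *Ednrb*, the receptor of Müller glia, had 19.1, 47.8 and 33.2 TPM in WT and 31.4, 29.3 and 36.3 TPM in cKO, a log2 difference of 0.05. *Ednra*, the receptor of vascular smooth muscle, had 1.66, 1.17 and 4.14 TPM in WT and 0.804, 0.514 and 0.837 TPM in cKO, with no overlap and an adjusted p of 0.289 by limma.

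*Lcn2*, a secreted lipocalin that binds iron-carrying siderophores, had 3.81, 0.547 and 5.55 TPM in WT and 1.84, 3.30 and 1.75 TPM in cKO. WT replicate 2 was the lowest of all libraries and the other WT libraries were the highest. Its log2 difference was −0.18 ± 0.56 (SE), with an adjusted p of 0.890 by limma, and its sign turned to 0.24 without WT replicate 3 and to 0.02 without WT replicate 1. *Slc22a17*, its receptor, is named after its values were seen. It had 669 TPM in WT replicate 2, the library in which *Fgfr1* also stood apart, and overlapped between the labels.

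*Serpina3n*, an inhibitor of serine proteases that reacting astrocytes secrete, had 13.2, 9.16 and 26.0 TPM in WT and 12.6, 12.6 and 10.6 TPM in cKO. All cKO libraries lay inside the WT range, which WT replicate 3 widened. The difference on the log2 scale was −0.29 ± 0.39 (SE), with an adjusted p of 0.719 by limma, and it was 0.10 without WT replicate 3. The gene has close paralogs that can share reads, so its level is uncertain. Of 10 listed neighbours in the *Serpina3* cluster 4 were tested, all with differences below 0 and a median of −0.97, and *Serpina3g* was the one past an unadjusted p of 0.05, at 64.2 ± 38.5 TPM in WT and 20.1 ± 8.67 TPM in cKO (SD, n = 3 each; adjusted p of 0.258 by limma).

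*Timp1*, an inhibitor of matrix metalloproteinases, reached 1 TPM in a single library. It had 1.48, 0.193 and 0.991 TPM in WT and 0.776, 0.489 and 0.509 TPM in cKO, so the cKO libraries lay inside the WT range. It was left out of the main test, and without a filter on low values its log2 difference was −0.19 ± 0.30 (SE), with an adjusted p of 0.788 by limma. *Timp1* lies within the span of *Syn1*, a neuronal synapsin gene, whose reads may not have been told apart. Of 9 related proteases and inhibitors 7 were tested, 3 above 0 and 4 below, with a median of −0.33 and none past an unadjusted p of 0.05. The extremes were *Mmp9*, a secreted gelatinase, at 1.13 and *Mmp14*, a membrane-bound metalloproteinase, at −1.54. In each a single library stood apart, cKO replicate 1 for *Mmp9* at 54.0 TPM and WT replicate 2 for *Mmp14* at 142 TPM.

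*Cp*, a ferroxidase of the cell surface and plasma that retinal Müller glia make, had 394, 922 and 991 TPM in WT and 380, 455 and 1239 TPM in cKO. Both groups held low and high libraries, and cKO replicate 3 was the highest of all. *Cp* had a log2 difference of −0.25 ± 0.54 (SE), with an adjusted p of 0.836 by limma, and it was 0.08 without cKO replicate 1 and −0.77 without cKO replicate 3. Its ratio to *Glul* stayed between 0.577 and 0.790 in all 6 libraries, a far narrower span than the TPM values themselves, with overlapping labels. The ratio of *Cp* to *Vim* was not so steady, at 1.23 to 2.84 in WT and 2.49 to 4.81 in cKO, which overlapped as well. *Hps3* overlaps the far end of *Cp*.

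All 8 listed genes of iron handling beside *Cp* were tested, with 3 differences above 0 and 5 below and a median of −0.30, and none passed the adjusted threshold. *Tfrc*, the transferrin receptor for iron uptake, had 36.4 ± 5.35 TPM in WT and 82.1 ± 7.34 TPM in cKO (SD, n = 3 each), a log2 difference of 1.16 with an unadjusted p of 0.000919 and an adjusted p of 0.124 by limma. The ferritin subunits that store iron were lower in cKO. *Fth1* had a log2 difference of −0.90 and *Ftl1* one of −1.03, and the heme oxygenase *Hmox1* had −0.84. The groups of these 4 genes did not overlap, beside 7.18% of all genes lower and 18.7% higher without overlap. Markers of microglia and myeloid cells, which also express ferritin and *Hmox1*, had a median difference of −0.74 with 13 of 14 below 0, and their part in these values was not tested.

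*Cd44*, the hyaluronan receptor on Müller glia and leukocytes, had 78.7, 83.5 and 115 TPM in WT and 40.7, 38.4 and 94.2 TPM in cKO. Of the cKO libraries 2 lay below all WT libraries, and cKO replicate 3 lay inside the WT range. The mean was 92.6 ± 20.0 TPM in WT and 57.8 ± 31.6 TPM in cKO (SD, n = 3 each). The log2 difference was −0.78 ± 0.38 (SE), with an unadjusted p of 0.0802 and an adjusted p of 0.324 by limma. The unadjusted p was 0.00385 without cKO replicate 3, 0.0212 with the replicate block and 0.0423 after scaling. The ratio of *Cd44* to *Vim* was 0.245 to 0.331 in WT and 0.243 to 0.366 in cKO, so both genes kept a similar ratio in all libraries. The ratio of *Gfap* to *Cd44* was 0.8004 to 1.01 in WT and 0.397 to 0.670 in cKO, with no overlap.

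Genes named for reactive astrocyte states lay mostly below 0, as the plot of differences by list shows. Of the other 6 pan-reactive genes 5 were tested, 4 below 0, with a median of −0.54. The chemokine *Cxcl10* had a log2 difference of −1.60 and the metalloreductase *Steap4* one of −1.06, both past an unadjusted p of 0.05 and without overlap. Of the 11 genes of the A1 list, all tested, 9 were below 0, with a median of −1.26. Of these, 5 passed an unadjusted p of 0.05, where 6.45% of all genes were lower at that p. These 5 were *Iigp1* and *Gbp2*, interferon-induced GTPases, *H2-T23*, an MHC class I gene, *Serping1*, a complement inhibitor, and *Srgn*, a proteoglycan of blood cells. Of the 12 genes of the A2 list 8 were tested, all below 0, with a median of −0.72. *Emp1*, an epithelial membrane protein, had −1.64 and *Ptgs2*, a cyclooxygenase, had −0.99, and both passed an unadjusted p of 0.05.

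**Figure D4:**
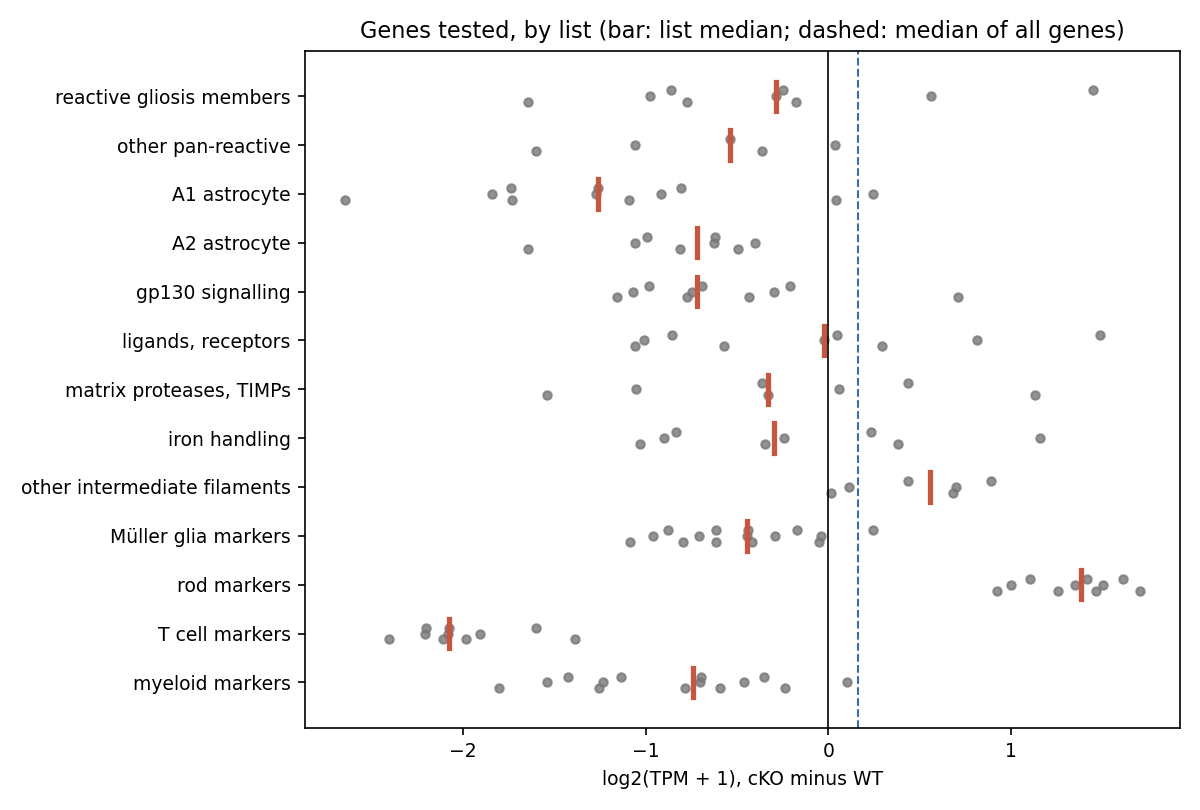
Log2 difference in TPM + 1, cKO minus WT, of each gene tested (grey points) in the 10 members' list, related lists and cell type markers, with list medians (red bars), 0 (solid line) and the median of all genes (dashed, at 0.16). The A1 list (median −1.26) and T cell markers (median −2.08) lie farthest below 0, and rod markers (median 1.38) farthest above.

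In the gp130 cytokine pathway, whose factor STAT3 is known to act on *Gfap*, 10 of 11 listed genes were tested, 9 of them below 0, with a median of −0.72. *Socs3*, the feedback inhibitor, had 144, 154 and 258 TPM in WT and 87.4, 63.9 and 130 TPM in cKO, a log2 difference of −0.98 with no overlap and an adjusted p of 0.206 by limma. The cytokine *Osm* and the receptor *Il6ra* had −1.16 and −1.07, and the receptor *Lifr* had 0.71. These 4 genes passed an unadjusted p of 0.05. In none of the astrocyte, gp130, iron, filament, ligand and receptor, protease and *Serpina3* lists did limma call a gene at an adjusted p under 0.05. At an unadjusted p under 0.05 there were 0 to 5 genes per list, beside 6.45% of all genes lower and 11.9% higher. Many genes of the A1, A2 and gp130 lists are also expressed by immune cells. T cell markers were below 0 for 10 of 10 genes, with sums of 659 to 1900 TPM in WT and 167 to 409 TPM in cKO, and their part in these lists was not tested.

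In the ATAC-seq comparison the *Vim* promoter was the member locus with the larger group difference. The region at chr2:13573553-13575453 (GRCm38) is 1901 bp long and runs from −758 to 1142 bp relative to the annotated start of *Vim*. Its group value, the authors' log2 of mean normalized reads, was 5.93 in WT and 3.43 in cKO, or 61.0 and 10.8 reads, a difference of −2.50 on the log2 scale. The deposited table gives group values alone, so no spread between libraries and no test can be given. Of the 8002 regions within 1000 bp of a gene end, 89.0% had a difference of −1 or less, with a median of −2.50, so the value at *Vim* was at the middle of such regions. Peaks called in single libraries were found at the *Vim* start in WT replicate 1 (a pair, 224 and 898 bp wide), in WT replicate 2 (1418 bp) and in cKO replicate 1 (209 bp), and not in cKO replicate 2. The cKO replicate 1 peak, from −30 to 178 bp relative to the start, is the shortest of the 4.

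The *Cd44* region, at chr2:102900446-102901405, is 960 bp long and lies 264 to 1223 bp downstream of the gene start, within the gene. Its group value was 3.78 in WT and 3.79 in cKO, or 13.7 and 13.8 reads, a difference of 0.01. Only 4.94% of the regions near gene ends had a difference at or above 0. The WT value at *Cd44* was above 45.6% of all regions and the cKO value above 96.3% of them. Peaks lay over this region in WT replicate 2 and, as a pair, in cKO replicate 2, and not in either replicate 1. Both outer ends of the region are ends of the cKO replicate 2 peaks.

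**Figure D5:**
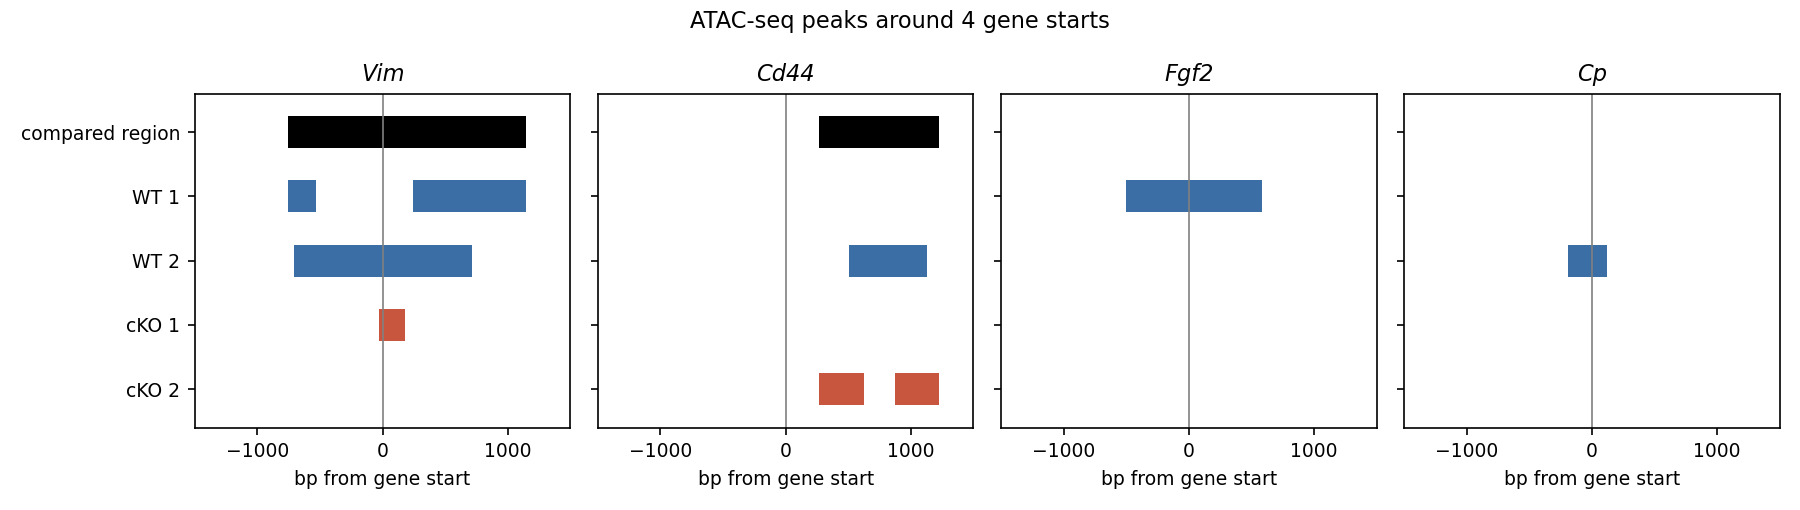
ATAC-seq peaks called in each of 4 libraries (WT blue, cKO red) and the region used in the comparison (black), by distance in bp from the annotated start of *Vim*, *Cd44*, *Fgf2* and *Cp*, in the direction of the gene. At *Vim* both WT libraries and cKO replicate 1 have peaks, at *Cd44* WT replicate 2 and cKO replicate 2 do, and at *Fgf2* and *Cp* a single WT library does.

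No region of the comparison lay within 1000 bp of an end of the other 8 genes. At *Fgf2* a peak of WT replicate 1 covered the start, from −502 to 581 bp relative to it, and at *Cp* a peak of WT replicate 2 did, from −190 to 116 bp relative to it. *Gfap*, *Nes*, *Lcn2*, *Serpina3n*, *Edn2* and *Timp1* had no peak of any library within 1000 bp of their start. In the gene body *Gfap* had 1 peak in WT replicate 2 and 1 in cKO replicate 2, at different places, and *Nes* had 2 in WT replicate 1. *Serpina3n* and *Timp1* had no peak in the gene or within 3000 bp of it. Members with a peak at their start numbered 2 in WT replicate 1, 3 in WT replicate 2, and 1 in each cKO library. Among 11687 genes tested by RNA-seq with a promoter window, 66.6%, 60.2%, 8.31% and 7.90% had such a peak in these libraries. A window of 3000 bp would add a region past the far end of *Lcn2*, at chr2:32381595-32382245, with group values of 4.70 in WT and 2.04 in cKO, which also overlaps the end of *1110008P14Rik*.

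The promoters of the glial filaments are shown because these were the members with less RNA in every cKO library than in any WT library. Each runs 250 bases upstream to 20 bases downstream of the start site of RefSeq on GRCm38.p6, 5′ to 3′ on the strand of the gene, with motif matches in capitals. The *Gfap* window is chr11:102897181-102897450 on the minus strand, the *Vim* window is chr2:13574061-13574330 on the plus strand, and the *Nes* window is chr3:87970843-87971112 on the plus strand.
Gfap: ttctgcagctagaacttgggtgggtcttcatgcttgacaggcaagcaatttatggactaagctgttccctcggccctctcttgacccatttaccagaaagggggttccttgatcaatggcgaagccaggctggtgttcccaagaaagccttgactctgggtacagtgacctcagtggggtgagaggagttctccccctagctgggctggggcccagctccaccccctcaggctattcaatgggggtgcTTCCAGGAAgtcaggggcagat
Vim: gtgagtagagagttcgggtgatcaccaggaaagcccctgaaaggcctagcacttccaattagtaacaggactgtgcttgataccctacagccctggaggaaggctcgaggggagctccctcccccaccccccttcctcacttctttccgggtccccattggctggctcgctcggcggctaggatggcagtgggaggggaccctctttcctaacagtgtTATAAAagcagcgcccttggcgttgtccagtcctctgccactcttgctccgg
Nes: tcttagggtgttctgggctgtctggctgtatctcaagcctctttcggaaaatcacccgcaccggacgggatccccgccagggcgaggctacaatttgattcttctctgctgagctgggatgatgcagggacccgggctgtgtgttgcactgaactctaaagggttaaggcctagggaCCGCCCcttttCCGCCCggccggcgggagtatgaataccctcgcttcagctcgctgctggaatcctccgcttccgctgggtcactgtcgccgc

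Motifs were searched by their letters on both strands of windows of 300 bases, from 250 before to 50 after the start, which all 10 members had. The STAT motif TTCNNNGAA was found in *Gfap* alone, over the start site at positions −2 to 6, and in 8.30% of all 32851 windows. The TATA motif TATAAA was found in *Vim*, at positions −32 to −27, and in *Cp*, in the window of its second start, where a pair of matches on opposite strands overlap. It occurs in 13.6% of all windows. The SP1 motif GGGCGG, in 35.7% of windows, was found 2 times in *Nes* (as its reverse complement) and also in *Lcn2*, *Fgf2*, *Timp1* and *Cd44*. The AP-1 motif TGANTCA, in 7.81% of windows, was found in *Cp*, and the CRE motif TGACGTCA, in 1.79%, in none of the members. *Edn2* and *Serpina3n* held none of the 5 motifs. The *Vim* region of the comparison covers the whole *Vim* window, and no library had a peak over the windows of *Gfap* or *Nes*. The GC content of the 300 bases was 55.7% for *Gfap*, 59.3% for *Vim* and 58.7% for *Nes*, where the median of all windows was 52.7%.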

How the data were processed

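RNA-seq covered 3 WT and 3 cKO libraries and ATAC-seq 2 and 2, grouped by sample labels. The authors trimmed reads with Trimmomatic, quantified them with Salmon 1.0.0 and summed them to genes with tximport, and the deposited values are TPM. TPM keep no depth, so no counting error can be given. Per library they sum to 995278 to 999315. For ATAC-seq the authors aligned reads with Bowtie 2 2.3.5.1 and deposited, from DiffBind, group values for 16600 regions on a log2 scale (mean of normalized reads). Peak lists per library give positions alone, and MACS2 2.2.5 is named in the submitters' processing notes. Build GRCm38 is given. The authors' fold changes, p-values and FDRs (DiffBind for ATAC-seq, DESeq2 1.26.0 for RNA-seq) were not used.

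The 17555 genes that reached 1 TPM in 3 or more of the 6 libraries were compared as log2(TPM + 1) with limma 3.58.1 in R 4.3.3 (empirical Bayes with trend, two-sided, Benjamini-Hochberg adjustment, threshold 0.05). Standard errors use limma's moderated variance. A fold on this scale understates the change of low genes. Exact two-sided permutation tests give no p under 0.1. The fit was tested on simulated data, with changes larger than that of any member and in genes of higher level than the low members. That test does not show how well the fit calls changes like those of the members. ATAC-seq group values have no spread and were not tested, and a difference of −1 or less was counted as lower. Gene positions, promoters and start sites are from RefSeq on GRCm38.p6, which gives no exons here. All 10 members matched by symbol. Region starts were raised by 1 to count from 1.

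Same-numbered RNA-seq libraries deviated together from their group means (correlations of 0.334, 0.101 and 0.425 over genes). Each passed the rule used (above 0.1), replicate 2 only just. The numbers may therefore pair the samples, but no label says so or says what they share. The main fit ignores any such pairing, and the fit with the replicate number as a block is given as an alternative. Other alternatives were a pseudocount of 0.1, no filter, a filter at a mean of 5 TPM, median-of-ratios scaling, no trend, leaving out each library, a 3000 bp window, a difference of −2 or less, and a reciprocal overlap of 50%.

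The members, lists, markers and tests were chosen with earlier results of these data known. All 10 members are named, and other genes of the lists where they were the extreme of their list or passed an unadjusted p of 0.05, unless said otherwise. Further marker lists were computed and are not reported here. Python 3.11.15 with numpy 2.4.6, pandas 2.3.3, scipy 1.17.1 and matplotlib 3.10.9 was used.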

Additional observations from a re-analysis of the deposited data

How the results depend on the processing

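Over 104 values of the 9 members under 12 alternative fits, 0 passed an adjusted p of 0.05 and 4 turned sign, all by leaving out a library: *Lcn2* (−0.80 to 0.24), *Serpina3n* (−0.60 to 0.10) and *Cp* (−0.77 to 0.08, the latter 0.0781 without cKO replicate 1). *Gfap*, *Vim*, *Nes*, *Cd44*, *Edn2* and *Fgf2* kept their direction in every fit that tested them. The member higher at an unadjusted p under 0.05, *Edn2*, was lost (0 members) with a mean TPM of at least 5, where it was not tested, with no filter, with the replicate block and after scaling, and leaving out a library gave 0 to 1, with 0 without WT replicate 1 or 2 or cKO replicate 2 or 3 (p of 0.0977, 0.123, 0.131 and 0.0654 by limma). It stayed in the fits with a pseudocount of 0.1 and with no trend. Members lower at that p numbered 1 to 4 when a library was left out, with 1, *Gfap*, without cKO replicate 2, where *Vim* and *Nes* had p of 0.0508 and 0.0608 by limma. The replicate block brought the members lower at that p to 4, by *Cd44*, and the adjusted p of *Gfap* to 0.0585 by limma. Beside *Cd44* and *Edn2* it changed no call among the members. Their median was −0.77 to −0.01 when a library was left out.

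For ATAC-seq, 2 regions were lower with a 3000 bp window and 1 with 1000 bp, and at a reciprocal overlap of 50% the 2 regions had 2 pairs of a region and a library with a peak, against 5. No paired analysis was possible because, for chromatin, the table gives group values alone. TPM keep no depth, so for members near 1 TPM counting error cannot be separated from spread between libraries.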
